A study of Mus musculus with 28 samples.

Results

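The genes described here are 35 genes of sterol and fatty acid synthesis in mouse C2C12 cells, chosen by matching a fixed list of gene symbols to the rows of a count table of 49089 genes. They fall into a sterol branch of 18 enzymes (Acat2 to Dhcr7 in the order of the pathway), a fatty acid branch of 9 enzymes, and 8 genes of sterol sensing, transport and efflux. All 35 were found, and all 35 were among the 15303 genes with enough counts to be tested. C2C12 is an immortalised mouse myoblast line, labelled wild type (WT) in every group, that stops dividing and fuses into myotubes when serum is withdrawn. RNA-seq was done on 3 libraries in each of 6 groups. Cells of the first group were proliferating in growth medium (GM) with 20% fetal bovine serum. The other 5 groups were moved near confluence to differentiation medium (DM) with 3% horse serum and collected after 12, 24, 48, 60 or 96 h. Open chromatin (ATAC-seq) and chromatin loops (Hi-C) were mapped in GM and at 60 h. The labels call the replicates biological without saying whether they were separate cultures. The p-values therefore reflect only how far these libraries lay apart, which may be technical. GM and DM differ in the amount and kind of serum, in cell density and in time, and these cannot be told apart in any comparison with GM.

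Cells make cholesterol from acetyl-CoA through mevalonate, isoprenoid units, squalene and lanosterol, and make fatty acids from the same acetyl-CoA through malonyl-CoA. Both routes are switched on by the sterol regulatory element-binding proteins, made by Srebf1 and Srebf2, which the escort protein Scap carries out of the endoplasmic reticulum when sterol is low; the Insig proteins hold Scap back when sterol is high. Srebf2 acts mainly on sterol genes and Srebf1 mainly on fatty acid genes, and surplus sterol works through the liver X receptors, which switch on the cholesterol exporters Abca1 and Abcg1. In muscle cells, new membrane is needed when myoblasts enlarge and fuse.

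Promoters of these genes were searched for exact matches to short motifs. RefSeq promoter windows (build GRCm38.p6, the same assembly as mm10) were matched by symbol for 27 of the 35 genes, 35 promoters in all because some genes have several starts and some windows overlap. Fdps, Fdft1, Sqle, Stard4, Fads1, Scd1, Scd2 and Abcg1 had no entry. Each window ran from 250 bases before the start to 50 after it and was searched on both strands. Printed here are the 250 bases before the start, 5′ to 3′ on the strand of the gene. Capitals mark 2 motifs. The first is TCACNCCAC, a strict form of the sterol regulatory element, and looser forms were not searched for. The second is the NF-Y box, written CCAAT, or read as its reverse complement ATTGG from the other strand. Hmgcs1, Idi1 and Msmo1 are sterol enzymes with strong rises, Insig1 had the largest rise of all 35 genes at 24 h, Fasn stands for the fatty acid branch, and Abca1 for a window with neither motif. Some windows were thus picked by how far the gene rose, and whether motifs and rises go together was not tested. Acat2, Fads2 and Abca1 had neither motif and were also higher than GM at 24 h. Insig2, with a small rise, had NF-Y boxes in 1 of its windows.
Hmgcs1 (chr13:119690101-119690350, plus strand): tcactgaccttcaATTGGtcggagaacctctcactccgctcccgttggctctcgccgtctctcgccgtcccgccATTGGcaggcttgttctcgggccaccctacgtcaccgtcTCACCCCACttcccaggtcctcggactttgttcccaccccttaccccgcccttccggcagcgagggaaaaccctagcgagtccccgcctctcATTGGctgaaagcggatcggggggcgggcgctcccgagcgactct
Idi1 (chr13:8885356-8885605, plus strand): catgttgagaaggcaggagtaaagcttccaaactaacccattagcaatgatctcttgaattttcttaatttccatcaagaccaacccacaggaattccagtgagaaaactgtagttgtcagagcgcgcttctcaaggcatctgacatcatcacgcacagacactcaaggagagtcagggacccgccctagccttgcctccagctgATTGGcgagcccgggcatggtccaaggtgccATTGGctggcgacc
Msmo1 (chr8:64733579-64733828, minus strand): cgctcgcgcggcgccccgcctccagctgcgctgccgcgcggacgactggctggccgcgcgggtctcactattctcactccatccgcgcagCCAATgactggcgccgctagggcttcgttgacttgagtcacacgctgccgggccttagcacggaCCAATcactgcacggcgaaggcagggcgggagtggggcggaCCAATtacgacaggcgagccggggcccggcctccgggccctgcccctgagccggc
Insig1 (chr5:28071162-28071411, plus strand): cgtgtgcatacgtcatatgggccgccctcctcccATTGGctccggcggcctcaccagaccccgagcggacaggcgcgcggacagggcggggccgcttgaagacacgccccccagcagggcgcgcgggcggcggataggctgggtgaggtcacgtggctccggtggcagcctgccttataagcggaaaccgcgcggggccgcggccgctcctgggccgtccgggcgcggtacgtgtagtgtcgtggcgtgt
Fasn (chr11:120824548-120824797, minus strand): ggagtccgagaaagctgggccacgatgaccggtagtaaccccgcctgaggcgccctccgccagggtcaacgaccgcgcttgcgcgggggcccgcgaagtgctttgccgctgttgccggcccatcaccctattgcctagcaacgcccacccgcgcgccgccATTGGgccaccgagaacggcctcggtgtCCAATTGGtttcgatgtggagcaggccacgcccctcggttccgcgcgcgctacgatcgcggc
Abca1 (chr4:53159896-53160145, minus strand): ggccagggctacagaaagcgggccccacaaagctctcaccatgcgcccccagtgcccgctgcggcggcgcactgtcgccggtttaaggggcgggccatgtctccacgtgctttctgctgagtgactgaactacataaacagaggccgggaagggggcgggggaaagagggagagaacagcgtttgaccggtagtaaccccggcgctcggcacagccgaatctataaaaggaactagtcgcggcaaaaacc
Hmgcs1 held the only exact match to TCACNCCAC among the 35 promoters, with its first base 137 bases before the start. Promoters without this match may still hold other forms of the element. That is 2.86% of these promoters, beside 1.24% of all 32851 promoters in the table and 1.15% of the 12879 promoters of genes tested. The NF-Y box was found in 22 of the 35 (62.9%), beside 37.4% of all promoters and 37.8% of those of genes tested. It was in 14 of 18 promoters of the sterol branch, 3 of 6 of the fatty acid branch and 5 of 11 of the sensing and efflux genes. The Msmo1 window held 3 NF-Y boxes before the start, at 160, 96 and 55 bases, and the Idi1 window held 2, at 45 and 14 bases. The Sp1 box GGGCGG was in 77.1% of the 35 (61.4% of those of genes tested, 35.7% of all), and the E-box CACGTG in 20.0% (9.71% and 7.15%). The letters AGGTCA, only a part of a liver X receptor site, were in 20.0% of the 35 (12.4% and 16.3%). In the Insig1 window they overlap an E-box. Full liver X receptor sites and other spellings were not searched for. Neither a match to AGGTCA nor its absence therefore tells whether a promoter holds a full site. A match of letters is a description of the window, not a site that was shown to be used.

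**Figure D1:**
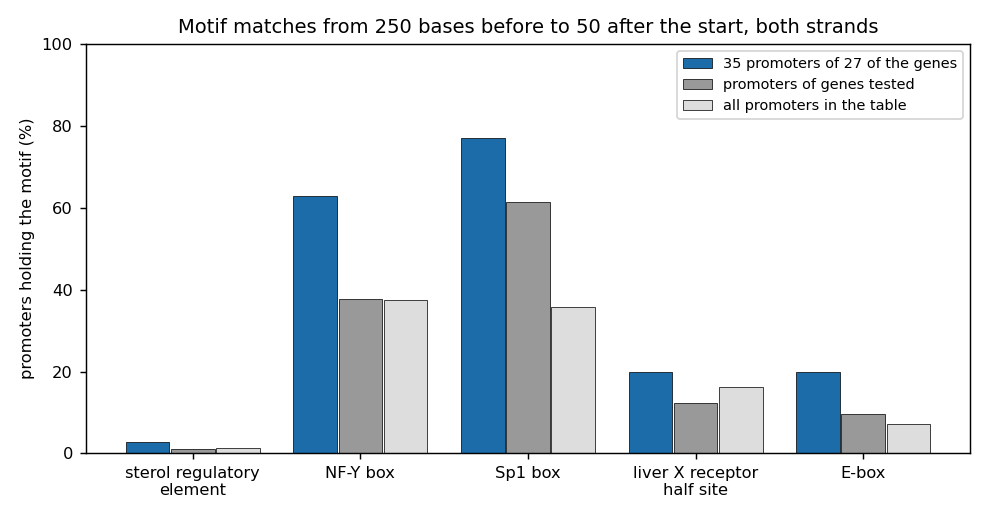
Share of promoters (%, y axis) that hold each of 5 motifs (x axis) among the 35 promoters of 27 of the genes, the promoters of genes tested and all promoters in the table. The NF-Y box was in 62.9% of the 35 promoters and in 37.8% of those of genes tested. Exact matches to TCACNCCAC, the form of the sterol regulatory element searched for, were rare in each set.

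Nearly all of these genes, like most genes tested, had open chromatin near a start in GM and at 60 h. Pmvk and Insig2 also had a start with no peak in either list. Of the 27 genes with a promoter entry, 26 (96.3%) had an ATAC peak within 500 bases of a start in both the GM list and the 60 h list, beside 93.7% of 10066 genes tested. The exception was Acaca, with a weak peak in the GM list (authors' fold enrichment 1.97, −log10 q 3.86) and none in the 60 h list. That peak lay wholly before the start. No other Acaca start was in the promoter set, so openness elsewhere in the gene was not examined. Over the start of Hmgcs1 the authors' fold was 9.28 in the GM list and 8.32 in the 60 h list, and over that of Idi1 it was 10.3 in both. The GM list holds 181622 peaks and the 60 h list 189516, 1 list per condition, so these values describe peaks within a list and no test between conditions was possible. Of the same 27 genes, 23 (85.2%) had a start inside an anchor of a deposited chromatin loop of any kind, beside 78.3% of genes tested. Loops called in both conditions touched 3 of them (11.1%, beside 20.7%).

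Libraries held 24.2 to 36.4 M counts. Myotube markers (Myog, Ckm, Myh3, Acta1 and Mymk) summed to 32.9 to 34.4 CPM (counts per M counts, after scaling) in GM and 3740 to 4170 CPM at 96 h. Myoblast markers (Myod1, Myf5, Des and Cdh15) summed to 811.5 to 842.8 CPM in GM and 2061 to 2288 at 96 h. Among them Myf5 went from a mean of 74.0 CPM to 32.5, while the means of Myod1, Des and Cdh15 were higher at 96 h than in GM. Markers of cycling cells (Mki67, Top2a and Ccnb1) summed to 1186 to 1240 CPM in GM, 1656 to 1763 at 12 h, 528 to 553 at 24 h and 118 to 138 at 96 h. Of 7 adipocyte markers 2 passed the filter, and 3 (Cidec, Retn and Plin1) were at 0 in GM. The 7 summed to 29.7 to 33.5 CPM in GM and 20.8 to 21.0 at 96 h. Within that sum Pparg went from a mean of 18.5 CPM to 6.27, and Cebpa from 12.5 to 14.5. Fibroblast markers (Pdgfra, Dcn and Thy1, of which 2 were tested) summed to 20.0 to 26.3 CPM in GM and 170 to 174 at 96 h. That rise was in Dcn alone, with means of 10.6 CPM in GM and 162.5 at 96 h. Pdgfra went from 12.5 to 9.60, and Thy1 was at 0 in every library. Hepatocyte, endothelial and macrophage markers summed to at most 0.0352, 0.367 and 2.26 CPM in any library. The part of these shifts in the results below was not tested. In no library did more than 1 of the 35 genes lie at least 0.5 from the mean of the other 2 libraries of its group on the log2(CPM + 0.5) scale, and the one gene to do so was Abca1 at 60 h.

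Most of the genes rose within 12 h of the switch, stood highest at 24 h and then came down, and most were still above growing cells at 96 h. Their summed share of all counts was 0.189% in GM, 0.377% at 12 h, 1.02% at 24 h, 0.812% at 48 h, 0.446% at 60 h and 0.438% at 96 h (means of 3 libraries). By edgeR's quasi-likelihood F test with Benjamini-Hochberg adjustment, called at an adjusted p under 0.05, all 35 differed from GM at some time, as did 86% of all genes tested. The group mean was highest at 24 h for 29 of the 35, beside 13.8% of all genes tested, and lowest in GM for 30, beside 24.9%. In bulk samples, fewer cells of a type and less RNA per cell cannot be told apart.

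Against GM, 30 of the 35 were higher at 12 h and none lower, where 17.8% of all genes tested were called higher and 17.2% lower. At 24 h 34 were higher and 1 lower (all genes 30.2% and 30.6%), and at 48 h again 34 and 1 (32.5% and 32.8%). At 60 h 30 were higher and 3 lower (33.1% and 32.2%), and at 96 h 32 were higher and 2 lower (34.8% and 34.1%). The median log2 fold change of the 35 was 0.98, 2.44, 2.17, 1.24 and 1.16 at the 5 times, while the median of all genes tested stayed within 0.01 of 0. At 24 h 22 of the 35 were called and at least 4-fold higher, as were 2.14% of all genes tested. These 5 comparisons share the 3 GM libraries. Scap was the single gene that was higher than GM at no time, and 28 were higher at all 5.

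**Figure D2:**
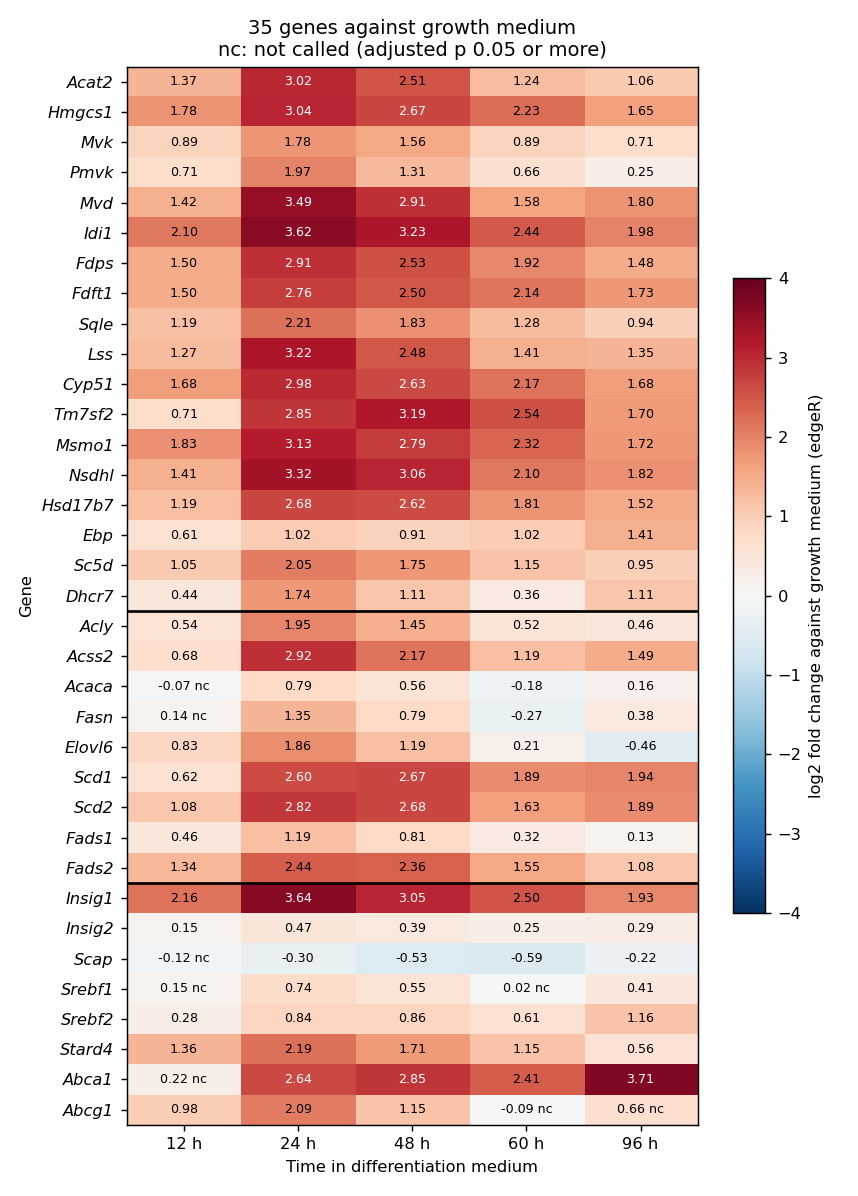
Log2 fold change against GM (edgeR; colour and printed value) of each of the 35 genes (y axis) at each time in DM (x axis), with lines between the sterol, fatty acid and sensing and efflux genes, and nc where the gene was not called. The sterol branch is above GM at every time; Scap is below it, and Abca1 has its highest value, 3.71, at 96 h.

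The 3 branches had different medians. The sterol branch was called higher in 18 of 18 genes at every time, with median log2 fold changes of 1.32 at 12 h, 2.88 at 24 h, 2.52 at 48 h, 1.70 at 60 h and 1.50 at 96 h. The fatty acid branch had medians of 0.62, 1.95, 1.45, 0.52 and 0.46, with 7, 9, 9, 7 and 8 of 9 genes higher and 2 lower at 60 h and 1 at 96 h. The sensing, transport and efflux genes had medians of 0.25, 1.47, 1.01, 0.43 and 0.61, with 5, 7, 7, 5 and 6 of 8 genes higher and Scap lower from 24 h on. No test of the difference between the branches was made.

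**Figure D3:**
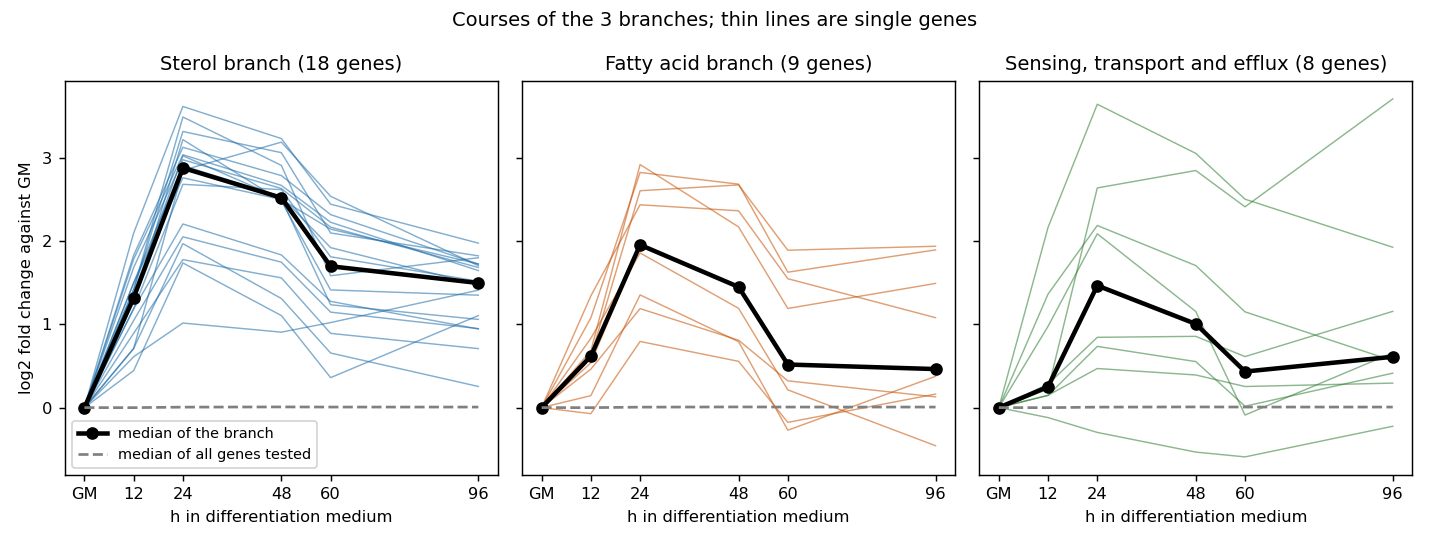
Log2 fold change against GM (y axis) over h in DM (x axis) in the 3 branches; thin lines are single genes, the black line is the branch median and the dashed line the median of all genes tested. The sterol median peaks at 2.88 and the fatty acid median at 1.95, both at 24 h, and the dashed line stays near 0.

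Early steps of the sterol branch, at Hmgcs1 and Idi1, rose strongly. Hmgcs1, which makes HMG-CoA from acetyl units, had 60.4, 63.0 and 70.7 CPM in the 3 GM libraries, 221, 220.5 and 227 at 12 h and 539, 562 and 492 at 24 h. It then had 387, 417 and 431 CPM at 48 h, 298.8, 295 and 314 at 60 h and 212, 195 and 200.5 at 96 h. No library in DM overlapped the GM libraries, and the 24 h libraries were the highest. Against GM, log2 fold changes were 3.04 ± 0.06 (SE) at 24 h (adjusted p = 1.9e-19) and 1.65 ± 0.06 at 96 h (adjusted p = 3.5e-16).

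Idi1, the isomerase that readies isoprenoid units for chain growth, had the largest rise of the sterol branch at 12, 24, 48 and 96 h. Its libraries held 26.1, 26.4 and 27.7 CPM in GM, 107, 113 and 124 at 12 h, and 330.4, 346 and 309 at 24 h. They held 242, 249.2 and 263 CPM at 48 h, 143, 141 and 153 at 60 h, and 111, 112 and 92.7 at 96 h. All DM libraries stood above all GM libraries, while 96 h overlapped 12 h. Log2 fold changes against GM were 2.10 ± 0.07 at 12 h (adjusted p = 8.3e-15) and 3.62 ± 0.07 at 24 h (adjusted p = 1.8e-19). Mvd, which decarboxylates mevalonate diphosphate, had 8.12, 7.33 and 9.71 CPM in GM, 22.8, 24.5 and 20.0 at 12 h, 94.0, 95.2 and 93.3 at 24 h, 57.7, 64.1 and 67.2 at 48 h, 23.7, 26.02 and 25.6 at 60 h and 28.7, 26.96 and 31.9 at 96 h. It lost more than any other of the 35 between 48 and 60 h (−1.33 ± 0.08, adjusted p = 2.4e-10).

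Sqle, the squalene epoxidase that adds the first oxygen on the way to lanosterol, was above GM at every time and highest at 24 h. Its libraries had 79.0, 80.5 and 84.5 CPM in GM, 184, 182 and 190 at 12 h and 376, 389 and 360.5 at 24 h. They had 280.0, 289 and 301 CPM at 48 h, 190, 199 and 202 at 60 h, and 156, 149.5 and 164 at 96 h. The groups did not overlap GM, and the log2 fold change was 2.21 ± 0.05 at 24 h (adjusted p = 3.7e-19).

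The other early enzymes, Acat2 (acetoacetyl-CoA), Mvk and Pmvk (mevalonate kinases), Fdps (farnesyl diphosphate) and Fdft1 (squalene), had log2 fold changes of 1.78 (Mvk) to 3.02 (Acat2) at 24 h. Of these, Pmvk was nearest to GM at 96 h (0.25 ± 0.09, adjusted p = 0.012; 0.17 and adjusted p = 0.099 without the third GM library). Fdft1 overlaps Ctsb by 774 bases in the RefSeq gene spans, and the sources used here do not say whether strand was used in the counting. Shorter overlaps with a tested gene were those of Srebf1 with Rai1 (114 bases), Acaca with Tada2a (10) and Tm7sf2 with Vps51 (9). Acat3, a near copy of Acat2, had 8 to 33 counts per library. The enzymes after lanosterol synthase (Lss, 3.22 at 24 h), namely Cyp51 (2.98), Msmo1 (3.13), Nsdhl (3.32) and Hsd17b7 (2.68), which strip methyl groups from lanosterol, stood close together at 24 h. Sc5d, a desaturase near the end, was at 2.05.

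Tm7sf2, a sterol C14 reductase, was the late member among these enzymes. It had 3.93, 3.85 and 4.59 CPM in GM, 7.37, 7.18 and 5.66 at 12 h, 29.8, 31.6 and 27.8 at 24 h, 31.6, 41.4 and 40.0 at 48 h, 23.0, 24.3 and 24.5 at 60 h and 13.7, 12.3 and 14.4 at 96 h. Its 48 h mean was the highest of its course, although the lowest 48 h library overlapped 24 h, and the rise from 24 to 48 h (0.34 ± 0.09, adjusted p = 0.0069) was the only called rise among the 35 at that step. That call was lost without the second (adjusted p = 0.082) or the third (adjusted p = 0.061) 48 h library.

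Ebp, the isomerase that shifts the sterol double bond, had its highest level at the end. It had 29.5, 28.5 and 31.2 CPM in GM, 46.6, 44.8 and 44.9 at 12 h, 64.8, 61.4 and 54.2 at 24 h, 49.8, 60.1 and 57.5 at 48 h, 60.6, 59.4 and 61.2 at 60 h and 80.3, 76.4 and 80.5 at 96 h. The 96 h libraries stood above all others. The rise from 24 to 96 h was 0.39 ± 0.06 (adjusted p = 1.3e-05), where the other 17 genes of the branch fell.

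Dhcr7, which makes cholesterol from its last precursor, came close to GM and rose again. It had 6.63, 5.78 and 5.72 CPM in GM, 7.85, 8.07 and 8.69 at 12 h, 18.3, 19.7 and 22.4 at 24 h, 13.1, 12.7 and 13.1 at 48 h, 7.15, 7.68 and 8.31 at 60 h and 12.9, 11.9 and 14.2 at 96 h. The 96 h libraries did not overlap those at 60 h, a rise of 0.75 ± 0.09 (adjusted p = 7.9e-07).

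In the fatty acid branch all 9 genes were higher than GM at 24 h, and they spread widely by 96 h. Acss2, which makes acetyl-CoA from acetate, had the largest rise of the branch at 24 h. It had 3.89, 5.01 and 3.86 CPM in GM, 7.23, 7.24 and 6.12 at 12 h, 32.02, 34.6 and 30.4 at 24 h, 18.4, 19.1 and 20.4 at 48 h, 9.68, 9.78 and 9.82 at 60 h and 11.8, 11.8 and 12.4 at 96 h. No DM library overlapped GM, and the log2 fold change at 24 h was 2.92 ± 0.09 (adjusted p = 9.3e-17). Acly, which makes acetyl-CoA from citrate, was at 1.95 ± 0.05 at 24 h and 0.46 ± 0.04 at 96 h, both called.

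Acaca, whose product malonyl-CoA commits carbon to fatty acids, had 103, 106 and 105 CPM in GM and 99.9, 99.6 and 99.7 at 12 h, where it was not called. It had 180.2, 176 and 189.5 CPM at 24 h, 156, 153 and 154 at 48 h, 98.0, 85.7 and 94.6 at 60 h, and 116, 114 and 123 at 96 h. The 24 h libraries were the highest, and the 60 h libraries lay below GM. Fitted log2 fold changes were 0.79 ± 0.05 at 24 h (adjusted p = 2.9e-12) and −0.18 ± 0.05 at 60 h (adjusted p = 0.0022). At 96 h it was 0.16 ± 0.05 (adjusted p = 0.0039), and without the third 96 h library 0.11 (adjusted p = 0.064).

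Fasn, the fatty acid synthase, had the same shape. It had 205, 193 and 192 CPM in GM, 234, 219.7 and 198 at 12 h, 484, 463 and 559 at 24 h, 338, 348 and 335 at 48 h, 154, 167 and 167 at 60 h and 247, 237 and 281 at 96 h. The 12 h libraries overlapped GM and the gene was not called there, although it was without the third library of 12, 24 or 96 h (adjusted p 0.022 to 0.048). Those at 60 h lay below it, and those at 96 h above it. The log2 fold change was 1.35 ± 0.07 at 24 h (adjusted p = 5.6e-13), −0.27 ± 0.07 at 60 h (adjusted p = 0.0021), and 0.65 ± 0.07 for the rise from 60 to 96 h (adjusted p = 1.5e-07).

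Elovl6, which lengthens palmitate, ended below GM. It had 27.1, 30.0 and 29.4 CPM in GM, 50.6, 49.1 and 54.4 at 12 h, 104, 111 and 97.9 at 24 h, 59.8, 67.4 and 70.9 at 48 h, 31.7, 32.8 and 35.6 at 60 h and 21.8, 20.8 and 20.4 at 96 h. The 96 h libraries were the lowest of the course (−0.46 ± 0.07 against GM, adjusted p = 7.0e-06), and the fall from 24 to 96 h, −2.32 ± 0.07, was the largest of the 35.

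Scd1 and Scd2, the desaturases that make oleate and palmitoleate, kept more of their rise. Scd1 had 153, 150.1 and 166 CPM in GM, 236, 243 and 241 at 12 h, 965, 940.2 and 949.7 at 24 h, 963, 1003 and 1031 at 48 h, 579, 559 and 601 at 60 h and 607, 586 and 604 at 96 h. Scd2 had 322, 304 and 360.2 CPM in GM, 673, 713 and 695 at 12 h, 2340, 2290 and 2353 at 24 h, 2049, 2114 and 2172 at 48 h, 1014, 973 and 1058 at 60 h and 1233, 1174 and 1257 at 96 h. Neither overlapped GM at any time. Scd1 was at 1.94 ± 0.04 at 96 h (adjusted p = 7.5e-20) and Scd2 at 1.89 ± 0.05 (adjusted p = 2.4e-18), the 2 highest of the branch. The ratio of Scd2 to Scd1 counts was 2.02 to 2.17 in GM, 2.86 to 2.94 at 12 h and 1.74 to 1.76 at 60 h, ranges over 3 libraries that did not overlap. At 48 h (2.11 to 2.13) and at 96 h (2 to 2.08) the ratio overlapped the GM range. The near copies Scd3 and Scd4 had 0 to 6 and 3 to 34 counts per library.

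The desaturases of polyunsaturated fatty acids differed from each other. Fads2 had 15.1, 15.3 and 17.2 CPM in GM, 43.2, 40.0 and 37.5 at 12 h, 88.0, 89.2 and 80.4 at 24 h, 77.4, 80.5 and 87.3 at 48 h, 45.1, 45.8 and 48.2 at 60 h and 33.6, 29.6 and 37.5 at 96 h. It stood above GM throughout and had the largest rise of the branch at 12 h (1.34 ± 0.08, adjusted p = 6.5e-11). Fads1 was at 1.19 ± 0.05 at 24 h and 0.13 ± 0.05 at 96 h (adjusted p = 0.024), the latter a call lost without the second or the third GM library, the first 24 h, the second 48 h, or the first or the third 96 h library (adjusted p up to 0.31).

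**Figure D4:**
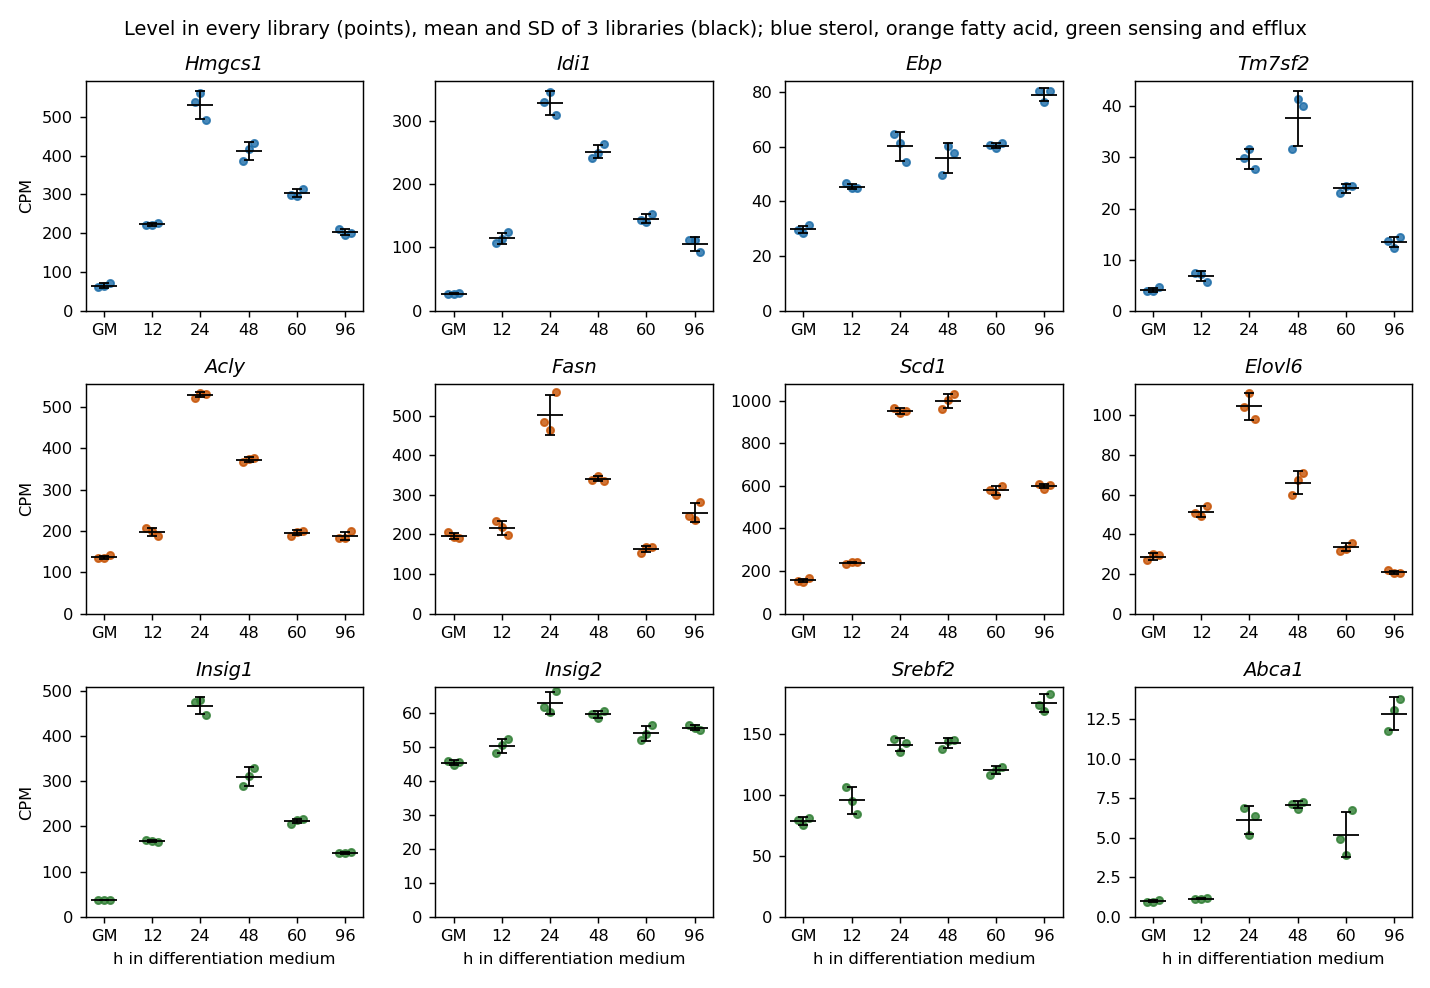
Level (CPM, linear y axis from 0) of 12 of the genes in each library (points), with the mean and SD of 3 libraries (black), in GM and at 12 to 96 h in DM (x axis). Most rise to 24 h and come down; Ebp, Srebf2 and Abca1 are highest at 96 h, Tm7sf2 and Scd1 at 48 h, and Elovl6 ends below GM.

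Among the sensing genes, Insig1 and its relative Insig2 moved by very different amounts. Insig1, which keeps Scap in the endoplasmic reticulum and is itself a target of the pathway, had 37.2, 37.4 and 37.7 CPM in GM, 171, 167 and 165 at 12 h, 475, 481 and 447 at 24 h, 289, 313 and 330.3 at 48 h, 207, 214 and 216 at 60 h and 142, 140.2 and 145 at 96 h. No 2 of these 6 groups overlapped. Its log2 fold change was 3.64 ± 0.05 at 24 h (adjusted p = 6.5e-22), the largest of the 35 at that time. Insig2 had group means of 45.4 CPM in GM and 62.8 ± 3.19 (SD, n = 3) at 24 h, a rise of 0.47 ± 0.05 (adjusted p = 1.2e-08). The ratio of Insig1 to Insig2 counts went from 0.810 to 0.837 in GM to 6.73 to 7.98 at 24 h and 2.52 to 2.63 at 96 h.

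Scap, the escort, went against the rest. It had 51.5, 49.5 and 47.5 CPM in GM, 47.1, 45.8 and 43.7 at 12 h, 38.0, 38.4 and 44.4 at 24 h, 33.5, 35.9 and 33.0 at 48 h, 32.5, 35.03 and 31.1 at 60 h and 38.3, 41.5 and 47.4 at 96 h. The 48 and 60 h libraries were the lowest and did not overlap GM, and the third 96 h library lay just under the lowest GM library. The log2 fold change was −0.30 ± 0.07 at 24 h (adjusted p = 0.0010), −0.59 ± 0.07 at 60 h (adjusted p = 3.1e-07) and −0.22 ± 0.07 at 96 h (adjusted p = 0.0080).

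The regulator Srebf2 had 79.8, 75.6 and 81.1 CPM in GM, 107, 95.2 and 84.9 at 12 h, 146, 136 and 143 at 24 h, 138, 144 and 146 at 48 h, 117, 121 and 123 at 60 h and 174, 169 and 184 at 96 h. Its 96 h libraries were the highest, 1.16 ± 0.06 above GM (adjusted p = 2.6e-13). Srebf1 had 53.3, 46.8 and 50.1 CPM in GM, 59.2, 58.1 and 48.9 at 12 h, 84.2, 77.0 and 88.9 at 24 h, 74.7, 73.6 and 71.8 at 48 h, 49.2, 49.2 and 53.3 at 60 h and 63.4, 60.3 and 76.3 at 96 h. It overlapped GM at 12 and 60 h, where it was not called (0.26 at 12 h without the third library, adjusted p = 0.02), and was 0.74 ± 0.08 higher at 24 h (adjusted p = 6.8e-08). The ratio of Srebf2 to Srebf1 counts was 1.50 to 1.62 in GM and 2.40 to 2.80 at 96 h. These are transcript levels, and the cleavage that activates both proteins was not measured.

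Stard4, which moves cholesterol between membranes, was at 1.36 ± 0.08 at 12 h, 2.19 ± 0.08 at 24 h and 0.56 ± 0.08 at 96 h, all called. The exporter Abca1 took another course. It had 0.927, 0.947 and 1.06 CPM in GM, 1.16, 1.09 and 1.18 at 12 h, 6.88, 5.16 and 6.40 at 24 h, 7.15, 6.83 and 7.26 at 48 h, 4.95, 3.90 and 6.74 at 60 h and 11.8, 13.1 and 13.8 at 96 h. Its 12 h libraries lay just above GM and it was not called there, the 60 h libraries were spread, and the 96 h libraries stood above all others. The log2 fold change at 96 h, 3.71 ± 0.17 (adjusted p = 2.6e-14), was the largest of the 35 at that time, and the rise from 60 to 96 h was 1.296 ± 0.14 (adjusted p = 8.3e-08).

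Abcg1, the partner exporter, was near the limit of detection, with 5 to 57 counts per library. It had 0.222, 0.305 and 0.532 CPM in GM, 0.706, 0.561 and 0.847 at 12 h, 1.77, 1.61 and 1.19 at 24 h, 0.540, 0.894 and 0.991 at 48 h, 0.208, 0.458 and 0.329 at 60 h and 0.757, 0.437 and 0.492 at 96 h. The 24 h libraries were the highest, and those at 60 and 96 h overlapped GM and were not called. Without the third GM library the 96 h value went from 0.66 to 1.06 and was called (adjusted p = 0.037). The log2 fold change was 2.09 ± 0.33 at 24 h (adjusted p = 1.2e-05), and the 12 h value, 0.98 ± 0.36 (adjusted p = 0.038), was not called without the first or second GM library or the first or the third 12 h library (adjusted p up to 0.14).

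The steps between neighbouring times show when the genes turned. From 12 to 24 h 34 of the 35 rose and Scap fell (all genes tested 27.8% higher, 26.5% lower), although Scap's call (−0.18 ± 0.07, adjusted p = 0.038) was lost under 2 other settings and without the first or the second library of either time (adjusted p up to 0.13). From 24 to 48 h 1 rose and 26 fell (17.5% and 14.8%), and from 48 to 60 h none rose and 33 fell (15.8% and 11.3%), with a median log2 fold change of −0.65. The largest falls from 24 to 48 h were those of Abcg1 (−0.93), Acss2 (−0.75) and Lss (−0.74). Abcg1's call at that step was lost without the first or the second 24 h library or the first 48 h library (adjusted p up to 0.11), the last leaving it at −0.70. From 60 to 96 h 11 rose and 18 fell (22.6% and 24.6%), so that the genes parted: 13 of 18 of the sterol branch fell, while Fasn, Acaca, Acss2, Scd2, Srebf1, Srebf2, Scap, Abca1, Ebp, Dhcr7 and Mvd rose. The rise of Mvd at that step (0.22 ± 0.08, adjusted p = 0.039) was lost without the first or the third 60 h library or the third 96 h library (adjusted p up to 0.15). Against 24 h, 31 of the 35 were lower at 96 h and Ebp, Srebf2 and Abca1 were higher (all genes 28.2% lower and 32% higher).

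Genes also differed in how much of their 24 h change was present at 12 h. The log2 change at 12 h was 50.6% of that at 24 h in the median of the sterol branch (24.8% for Tm7sf2 to 60.1% for Ebp), and 27.5% in the median of the fatty acid branch (−9.16% for Acaca to 55.1% for Fads2). By this share Stard4 (62.3%), Ebp, Insig1 (59.4%), Hmgcs1 (58.7%) and Msmo1 (58.5%) stood highest, and Acaca, Abca1 (8.35%) and Fasn (10.6%) lowest. The share is of the 24 h change, not of each gene's largest change. Ebp was at 1.02 at 24 h and at 1.41 at 96 h. At 96 h the sterol branch kept 54.4% of its 24 h log2 change in the median and the fatty acid branch 27.8%, with Elovl6 at −24.6% and Scd1 at 74.4%. These shares have the GM libraries in common and are descriptions.

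**Figure D5:**
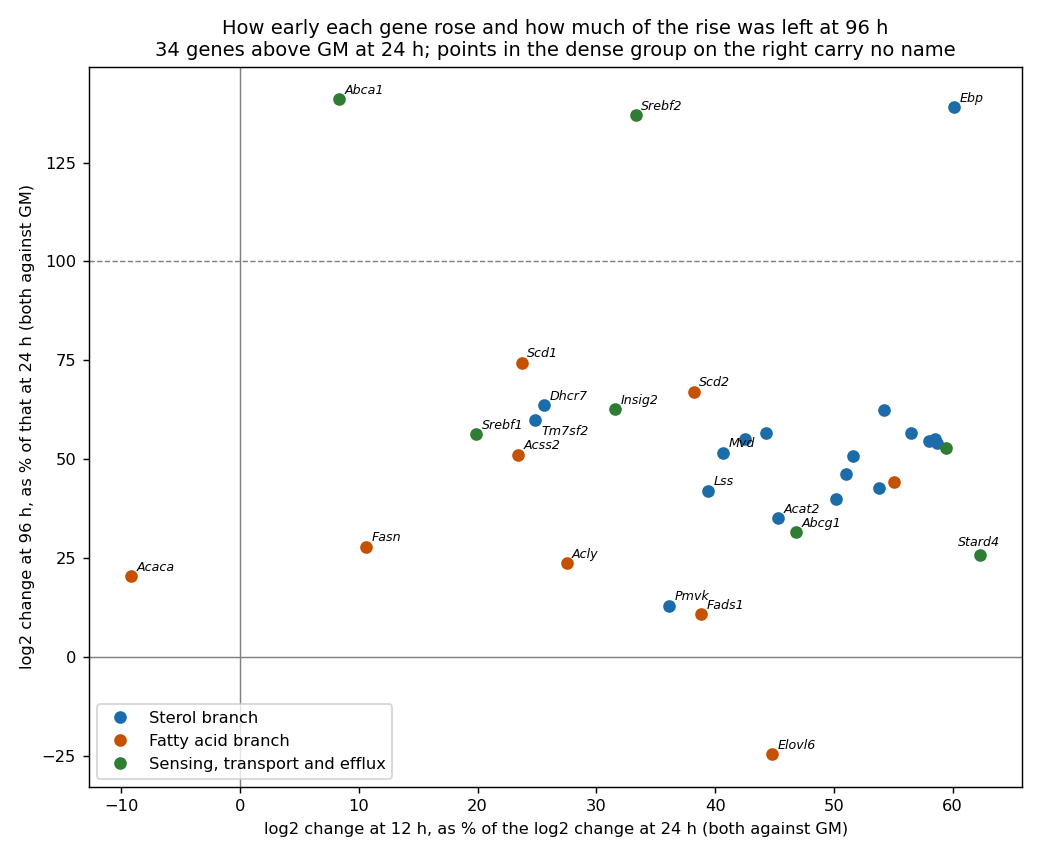
Log2 change against GM at 12 h (x axis) and at 96 h (y axis), each as % of the log2 change at 24 h, for the 34 genes above GM at 24 h, coloured by branch. Acaca, Abca1 and Fasn lie at the left; Ebp, Srebf2 and Abca1 lie above the dashed line at 100%, and Elovl6 lies below 0.

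Other genes of the same pathways, 22 on a list that left out the 35, had smaller median changes. At 24 h 15 were higher and 2 lower than GM (all genes tested 30.2% and 30.6%), with a median log2 fold change of 0.27. At 96 h 11 were higher and 5 lower (34.8% and 34.1%), with a median of 0.11. The largest rises at 24 h were those of Acsl3, which activates fatty acids (2.44 ± 0.05, adjusted p = 3.1e-19), and Lpin1, which makes diacylglycerol (2.12 ± 0.09, adjusted p = 1.9e-14). They were followed by Slc25a1, the mitochondrial citrate carrier (1.58), Mmab, a cobalamin enzyme (1.53), Aacs, which makes acetoacetyl-CoA in the cytosol (1.51), and Lpcat3, a phospholipid acyltransferase (1.15). At 96 h Acsl3 was still at 2.19 ± 0.05, while Slc25a1 was at 0.18 ± 0.08 (adjusted p = 0.036), a call lost with upper-quartile scaling and without any 1 of 7 libraries, from GM, 24, 48 and 96 h (adjusted p 0.073 to 0.35).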

How the data were processed

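The RNA-seq table deposited by the authors holds unscaled whole-number counts for each gene. The submitters' processing notes name STAR, RSEM, DESeq2, edgeR and build mm10, without roles. For ATAC-seq, 1 list of broad peaks was deposited for each condition, giving the authors' fold enrichment (a ratio) and −log10 q, and the notes name Bowtie2 2.2.6 and MACS2 2.2.7. The deposited loop table lists anchors and the condition each loop was called in. No source used here says whether strand was used in counting, or how whole numbers came from RSEM. Groups, times and replicate numbers came from the sample titles.

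edgeR 4.0.16 (R 4.3.3) was run on all 18 RNA-seq libraries in 1 fit (filterByExpr by group, TMM scaling, quasi-likelihood F test with 12 residual degrees of freedom, Benjamini-Hochberg adjustment over 15303 genes, called under 0.05). Values after ± are standard errors (SE) taken as the absolute log2 fold change over the root of F, unless named SD. CPM used effective library sizes. The test was checked on simulated counts. No replicate pair agreed within sampling noise (chi-square over its degrees of freedom, 5.06 to 53.2), so each library was counted once. Same-numbered libraries did not deviate together, so replicate numbers were not used as a block. Promoters were RefSeq windows searched in Python 3.11.15, and figures were drawn with matplotlib 3.10.9.

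Members and lists were chosen with earlier results of these data known. Values per library are given for Insig1, Idi1, Hmgcs1, Sqle, Srebf1, Srebf2, Fasn, Scd1, Scd2, Abca1 and Abcg1, for the largest rise and fall of each branch at each time, and for genes that went against their branch. Of genes outside the 35, at most the 6 largest called changes at 24 h are named. Alternatives were RLE and upper-quartile scaling, no filter, a CPM filter, DESeq2 1.42.0, only the 6 libraries compared, a replicate block, each library left out, 1 strand for motifs, 1000 bases around starts, and peaks of −log10 q of at least 10.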

Additional observations from a re-analysis of the deposited data

How the results depend on the processing

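Of 350 calls (35 genes in 10 comparisons), 327 were the same under every one of the 25 alternatives that gave a value, 23 changed in at least one, and none reversed. Abcg1 at 60 h against GM had no value with only the 6 libraries compared. The count of genes called lower from 12 to 24 h (Scap, in the sensing genes) went from 1 to 0 with upper-quartile scaling and with a CPM filter, and ranged from 0 to 1 when each library was left out. The count called higher from 24 to 48 h (Tm7sf2, in the sterol branch) ranged from 0 to 1, and that of sensing genes called lower from 48 to 60 h from 4 to 7. On 1 strand alone, 11 promoters (31.4%, beside 21.6% of those of genes tested) held the NF-Y box and 4 (11.4%, beside 6.61%) the letters AGGTCA. With peaks of −log10 q of at least 10, 0 genes had a peak in the GM list only and 1 (Acaca) in neither list. Same-numbered libraries correlated from −0.181 to 0.154 in their deviations, and 2 of 18 correlated best with their own number; with the replicate block 29 genes in place of 30 were higher at 12 h, the one lost being Abcg1. Abcg1 at 12 h was also not called by DESeq2 (adjusted p = 0.052) or with only the 6 libraries compared (adjusted p = 0.051), and Fads1 at 96 h was not called with upper-quartile scaling (adjusted p = 0.089), without a filter (adjusted p = 0.091) or with only the 6 libraries (adjusted p = 0.061). Without a filter, Fasn (0.18) and Srebf1 (0.19) were called higher at 12 h. The causes of these changes were not tested. At 5 to 57 counts per library, depth limits what can be said of Abcg1.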
